A study of Mus musculus with 25 samples.

Results

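The complement genes described here are C1qa, C1qb, C1qc, C3, Cfb, Cfp, C3ar1, C5ar1 and Serping1, which encode components, receptors and a regulator of the complement system. They were taken by symbol from the deposited gene tables, and all 9 were found among the 24411 genes listed. RNA-seq of strand-specific libraries was available for 25 samples in 9 conditions, with removal of rRNA in the protocol although the labels give the molecule as polyA RNA. Bone marrow-derived macrophages (BMDMs) of C57BL/6 mice, grown in DMEM and differentiated for 4 days with 25 ng/ml macrophage colony-stimulating factor (M-CSF), made up 7 groups of 3. These were an untreated control, IFN-γ (100 U/ml) with LPS (100 ng/ml) for 1, 4, 12 or 24 h, and IL-4 or IL-13 (10 ng/ml each) for 12 h. The labels name IFN-γ and LPS as 1 treatment with its hours, whereas the study describes priming with IFN-γ before LPS, so the hours may count LPS alone and the effects of priming and of LPS cannot be told apart. RAW264.7, an established mouse macrophage cell line kept in RPMI medium, made up 2 groups of 2, an untreated control and LPS (100 ng/ml) for 4 h. Both controls are labelled with a culture time of 4 h, so in BMDMs treatment and time in culture cannot be told apart at 1, 12 and 24 h. The labels do not say that the RAW264.7 samples came from separate cultures, so the spread between these libraries may be technical. The p-values for RAW264.7 rest on a spread estimated over all 25 samples, most of them BMDMs.

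Complement is a cascade of blood and tissue proteins that marks microbes and dying cells for uptake. C1q, built from the products of C1qa, C1qb and C1qc, starts the classical pathway, and all pathways meet at C3, whose activation is amplified through factor B (Cfb) and stabilised by properdin (Cfp). The fragments C3a and C5a act on cells through C3ar1 and C5ar1, and C1 inhibitor (Serping1) blocks the proteases of the C1 complex. Much of the circulating supply is made in the liver, while macrophages are a major source of C1q in tissues.

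Each library held 2378639 to 3357300 sense counts on genes, of which the ribosomal precursor Rn45s took 20.1% to 39.8%. Without it, 1502618 to 2532496 counts remained. Levels are given as CPM of these remaining counts, normalized with TMM factors. Changes are log2 fold changes from 1 edgeR quasi-likelihood fit of all 25 samples over 10612 genes, each with an approximate SE after ±. Changes were called at a Benjamini-Hochberg adjusted p of at most 0.01. The SE, and the intervals built on it, can be narrower than counting error alone where a large change rests on few counts. This holds for C1qa and C1qb in resting RAW264.7, with 11 and 33 counts there. It also holds for Cfb and C3 after IFN-γ with LPS, with 1 and 50 counts in the BMDM control. The summed level of 8 macrophage markers was 18939 to 32893 CPM in BMDM libraries and 8532 to 10265 CPM in RAW264.7, where Mertk was at 0. T cell markers were at 0 throughout, and in BMDMs the 7 neutrophil markers summed to 12.2 to 51.7 CPM and the 5 fibroblast markers to 52.4 to 109 CPM. Tnf averaged 28.2 CPM in the BMDM control and 10942 CPM after 4 h of IFN-γ with LPS, and Chil3 went from 5.02 CPM to 715 with IL-4 and 1384 with IL-13. Replicate libraries differed from each other by a chi-square per degree of freedom of 1.30 to 4.53, and the highest value was between libraries 1 and 3 of the 12 h group.

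The genes for the 3 chains of C1q lie side by side on the minus strand of chromosome 4 (mm10), within 18675 bp. C1qb spans chr4:136880129-136886187, C1qc chr4:136889804-136893065 and C1qa chr4:136895917-136898803. RefSeq windows from 250 bases before to 50 bases after the annotated start were found for 6 of the 9 genes (build GRCm38.p6), and those of C1qb and C1qc are shown because the levels of these neighbours followed each other most closely. Capitals mark matches, on either strand, to any of 7 motifs searched after expression results were known. The C1qb window (chr4:136886151-136886450, minus strand) held a PU.1 core GAGGAA at position -30 from the start. The C1qc window (chr4:136892865-136893164, minus strand) held that core on the opposite strand at -193 and an NF-κB consensus at -41.
C1qb: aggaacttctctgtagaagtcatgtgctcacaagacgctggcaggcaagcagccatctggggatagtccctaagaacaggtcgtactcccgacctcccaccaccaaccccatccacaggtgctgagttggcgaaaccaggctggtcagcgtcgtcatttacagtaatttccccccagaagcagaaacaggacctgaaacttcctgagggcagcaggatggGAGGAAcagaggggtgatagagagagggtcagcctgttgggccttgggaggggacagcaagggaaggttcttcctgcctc
C1qc: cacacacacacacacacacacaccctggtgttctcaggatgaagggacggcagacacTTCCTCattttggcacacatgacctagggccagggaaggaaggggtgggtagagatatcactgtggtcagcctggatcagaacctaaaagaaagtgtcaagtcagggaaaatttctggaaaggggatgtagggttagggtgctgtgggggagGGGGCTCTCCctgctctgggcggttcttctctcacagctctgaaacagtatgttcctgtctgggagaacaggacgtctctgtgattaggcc
Of 32851 windows in the RefSeq table, 28.3% held the PU.1 core and 4.51% the NF-κB consensus. Neither C1q window held the interferon-stimulated response element, the STAT motif TTCNNNGAA (8.30% of windows), its variant with a 4-base spacer, the AP-1 motif TGANTCA (7.81%) or the TATA box TATAAA (13.6%). The response element was in 3.44% of windows and the STAT variant in 6.95%. The matches printed here did not overlap each other.

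**Figure D1:**
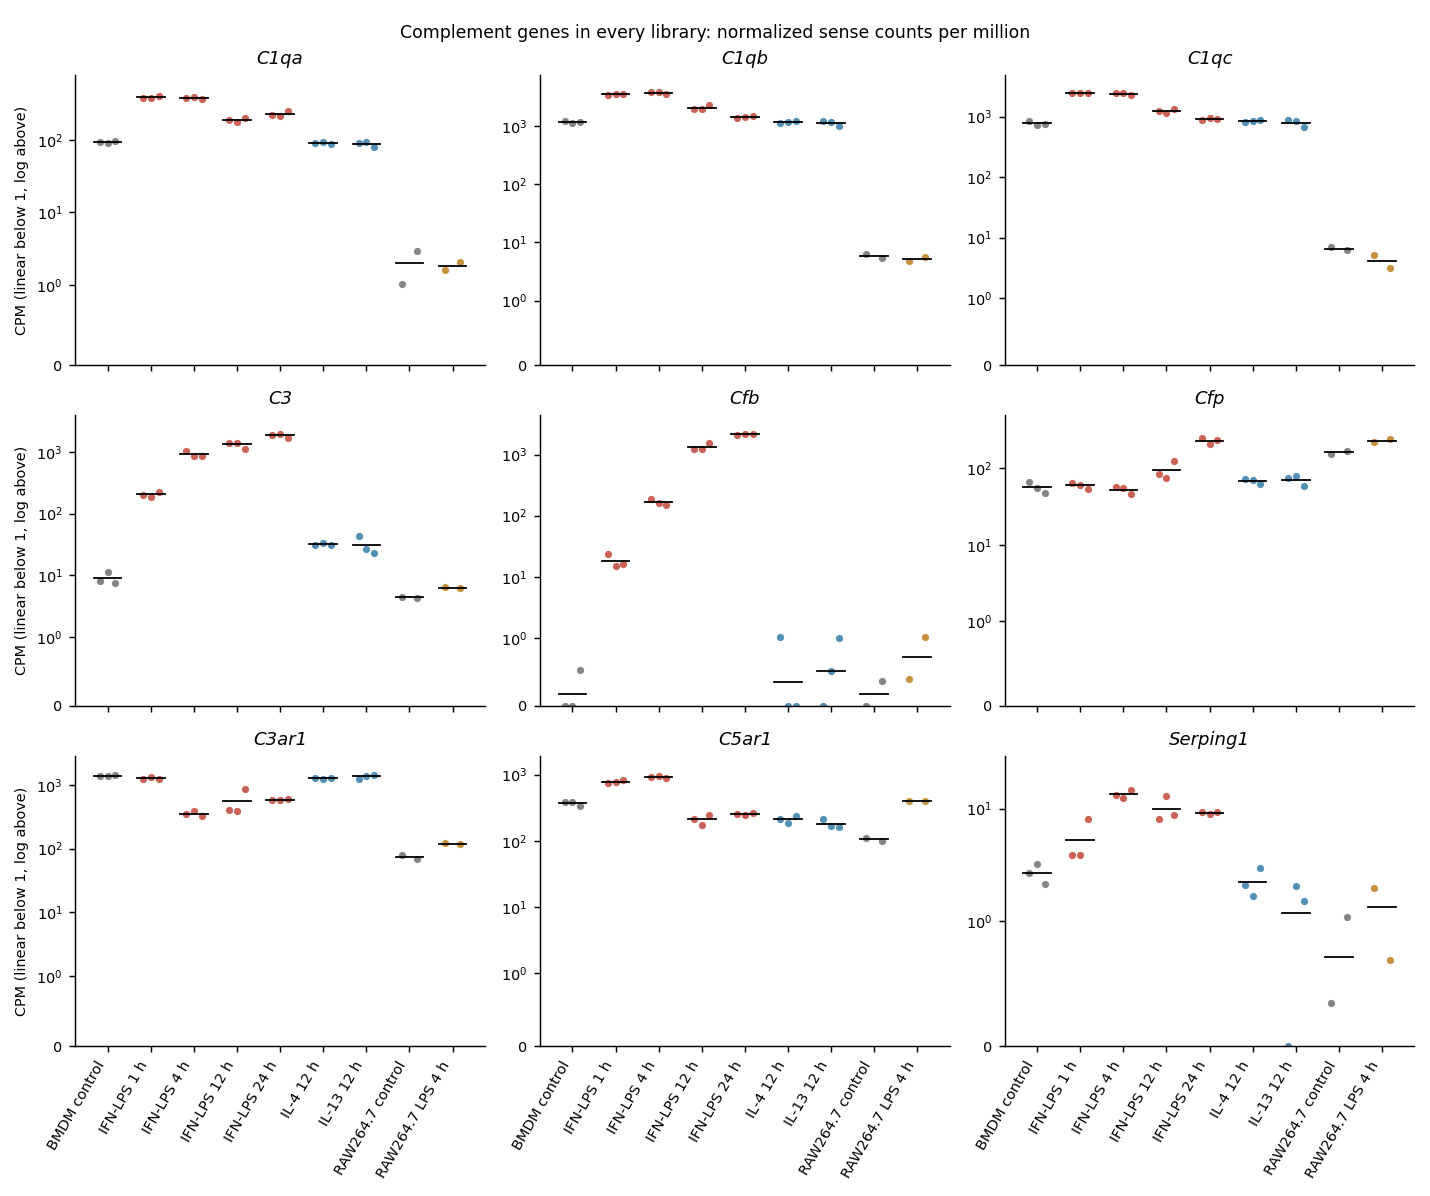
CPM of the 9 genes in every library (points) with group means (black lines), on an axis that is linear below 1 CPM and logarithmic above. C3 and Cfb climb through the 24 h of IFN-γ with LPS, the C1q chains stand highest at 1 and 4 h, and RAW264.7 libraries hold the C1q chains at 1.04 to 6.94 CPM.

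All 3 C1q chains were higher in the 1 h samples of IFN-γ with LPS than in the control, stayed high at 4 h and fell back afterwards. C1qa stood at 93.9, 91.2 and 95.2 CPM in the control libraries and 382, 381 and 399 CPM after 1 h, then at 379, 393 and 364 (4 h), 188, 178 and 199.97 (12 h) and 222, 217 and 248 (24 h). C1qb stood at 1198, 1123 and 1186 CPM in the control libraries and 3389.8, 3568 and 3469 CPM after 1 h, then at 3788, 3796 and 3449 (4 h), 1946, 1921 and 2261 (12 h) and 1385, 1423 and 1453 (24 h). C1qc stood at 849, 737 and 747 CPM in the control libraries and 2409.8, 2473 and 2433 CPM after 1 h, then at 2418, 2451 and 2278 (4 h), 1231, 1147 and 1334 (12 h) and 891, 931 and 928 (24 h). For each chain, every treated library lay above every control library, and the 1 h and 4 h libraries overlapped. In bulk samples such as these, fewer cells of a type and less RNA per cell cannot be told apart.

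The rise at 1 h was 2.05 ± 0.10 for C1qa, 1.57 ± 0.08 for C1qb and 1.65 ± 0.09 for C1qc (edgeR, adjusted p at most 1.37e-27). By 12 h the changes from control were 1.01 ± 0.10, 0.81 ± 0.08 and 0.67 ± 0.09. At 24 h C1qa still stood 1.29 ± 0.10 above the control (adjusted p = 1.03e-18), while C1qb stood 0.28 ± 0.08 above it (adjusted p = 0.00241) and C1qc was at 0.24 ± 0.09, which was not called (adjusted p = 0.0158). The C1qb call at 24 h was lost with library sizes alone (0.05), with upper-quartile scaling (0.15) and without control replicate 2 or 24 h replicate 3 (0.25 and 0.27), and C1qc was called without control replicate 1 (0.30). From 4 to 12 h all 3 chains fell, C1qa by 1.00, C1qb by 0.85 and C1qc by 0.94 on the log2 scale (adjusted p at most 1.41e-14). Between 12 and 24 h C1qb fell by 0.52 and C1qc by 0.43 (adjusted p at most 4.78e-05), and C1qa moved by 0.28 ± 0.10 (adjusted p = 0.0275), which was called with library sizes alone and with upper-quartile scaling.

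The balance of the chains was measured within each library, where it does not depend on scaling, from counts per kb of exon in the GENCODE M21 gene models. C1qb gave 11.8 to 12.2 times as many counts per kb as C1qa in the control libraries. The range was 8.31 to 8.94 after 1 h, 9.06 to 9.56 after 4 h, 9.88 to 10.8 after 12 h and 5.61 to 6.28 after 24 h, and none of these overlapped the control. The ranges with IL-4 (11.7 to 13.0) and IL-13 (11.9 to 12.8) overlapped it. Group means of C1qb against C1qc lay between 1.52 and 1.82 in BMDMs. C1qa made up 4.76 to 5.08% of the summed C1q counts per kb in the control and 9.10 to 10.2% at 24 h.

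C3, the protein on which all complement pathways converge, rose from a low level at every step of the time course. The gene lies on the minus strand at chr17:57203970-57228136 (mm10), and its window (chr17:57228087-57228386, minus strand, RefSeq, GRCm38.p6) is shown because C3 was called upward with IFN-γ and LPS, IL-4 and IL-13. It held 1 match, in capitals, the TATA box TATAAA at position 15 after the annotated start, and none of the other 6 motifs.
C3: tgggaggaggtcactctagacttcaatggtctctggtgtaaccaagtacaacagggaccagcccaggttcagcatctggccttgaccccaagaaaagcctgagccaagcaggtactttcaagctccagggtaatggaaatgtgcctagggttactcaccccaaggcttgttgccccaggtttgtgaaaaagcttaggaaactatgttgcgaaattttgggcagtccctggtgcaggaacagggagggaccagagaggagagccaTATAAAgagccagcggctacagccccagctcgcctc
C3 stood at 8.05, 11.4 and 7.49 CPM in the control libraries and 203, 188 and 222 CPM after 1 h, then at 1024, 853 and 842 (4 h), 1404, 1407 and 1128 (12 h) and 1859.7, 1957 and 1688 (24 h). These 5 groups did not overlap, and each later time stood above the one before. Its log2 change from control was 4.50 ± 0.17 (1 h), 6.65 ± 0.16 (4 h), 7.18 ± 0.16 (12 h) and 7.67 ± 0.16 (24 h), with an adjusted p of at most 9.65e-33. The steps between neighbouring times were 2.15 ± 0.11, 0.54 ± 0.10 and 0.48 ± 0.09, all called (adjusted p at most 5.13e-05).

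Cfb encodes factor B, the protease that joins with C3b in the alternative pathway convertase, and lies on the minus strand at chr17:34856374-34862518. The control libraries held 0, 0 and 1 counts, or 0, 0 and 0.535 CPM. After 1 h the libraries held 24.0, 14.8 and 16.2 CPM, then 188, 161 and 150.1 (4 h), 1248, 1231 and 1570.4 (12 h) and 2122, 2211 and 2209 (24 h). No group overlapped another. Against 1 control count, the ratio of summed and scaled counts was 924 at 4 h (95% counting interval 165 to 36562) and 12162 at 24 h (2183 to 480412), and the fitted changes (adjusted p at most 2.52e-15 at the 4 times) depend on the prior count. They also depend on strand, since with reads of both strands counted the log2 change went from 6.24 to 2.75 at 1 h and from 13.12 to 9.54 at 24 h, both still called. Between treated groups Cfb rose by 3.17 ± 0.16 from 1 to 4 h, 3.02 ± 0.11 from 4 to 12 h and 0.69 ± 0.09 from 12 to 24 h (adjusted p at most 1.45e-08). Per kb of exon, Cfb gave 0.136 to 0.221 times the counts of C3 after 1 h, 0.333 to 0.353 times after 4 h, 1.63 to 2.60 times after 12 h and 2.11 to 2.44 times after 24 h.

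Cfb adjoins Nelfe, a gene of the opposite strand that ends next to it, and GENCODE M21 places the read-through locus Gm20547 across Cfb and C2, so counts could be divided among them. In 4 groups Cfb had fewer sense than antisense counts summed over libraries, with 1 against 17 in the BMDM control, 2 against 11 with IL-4, 3 against 9 with IL-13 and 1 against 6 in the RAW264.7 control. Antisense counts on Nelfe summed to 3 in the control and 104 at 24 h, when they were 36.9% of its counts.

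Cfp encodes properdin, which stabilises the alternative pathway convertase, and lies at chrX:20925454-20931555. It was first called at 12 h. It stood at 66.0, 55.4 and 48.1 CPM in the control libraries and 64.8, 61.1 and 53.6 CPM after 1 h, then at 56.7, 55.1 and 46.7 (4 h), 84.9, 74.1 and 126 (12 h) and 249, 207 and 238 (24 h). The 1 h and 4 h libraries overlapped the control, and those of 12 and 24 h lay above it. Its change was 0.08 ± 0.15 at 1 h (adjusted p = 0.735), -0.10 ± 0.17 at 4 h (adjusted p = 0.633), 0.75 ± 0.14 at 12 h (adjusted p = 6.55e-06) and 2.03 ± 0.13 at 24 h (adjusted p = 1.61e-22). With library sizes alone it was called downward at 4 h (-0.68) and not called at 12 h (0.39), and without 12 h replicate 3 the 12 h value was 0.49. From 12 to 24 h Cfp rose by 1.28 ± 0.12 (adjusted p = 1.45e-13).

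The receptors for C3a and C5a moved in opposite directions at 4 h. C3ar1, which binds C3a, lies at chr6:122847138-122856161, and C5ar1, a C5a receptor that guides myeloid cells, at chr7:16246743-16259540. C3ar1 stood at 1387, 1394 and 1431 CPM in the control libraries and 1229.8, 1346 and 1229.9 CPM after 1 h, then at 354, 383 and 323 (4 h), 411, 386 and 856 (12 h) and 588, 582 and 598 (24 h). All libraries of 4, 12 and 24 h lay below the control, and the third library of 12 h lay above those of 24 h. C5ar1 stood at 386, 382 and 341 CPM in the control libraries and 748, 780.3 and 819 CPM after 1 h, then at 919, 966 and 891 (4 h), 209.7, 173 and 249 (12 h) and 254, 246 and 260.1 (24 h). Its libraries lay above the control at 1 and 4 h and below it at 12 and 24 h.

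C3ar1 changed by -0.15 ± 0.19 at 1 h (adjusted p = 0.6), -1.99 ± 0.20 at 4 h (adjusted p = 1.41e-07), -1.35 ± 0.19 at 12 h (adjusted p = 1.14e-05) and -1.25 ± 0.19 at 24 h (adjusted p = 2.45e-05). With only the groups compared in the fit, the 12 h value was -1.40 with an adjusted p of 0.0225, and without 12 h replicate 3 it was -1.82. C5ar1 rose by 1.08 ± 0.10 at 1 h and 1.32 ± 0.10 at 4 h, and then changed by -0.81 ± 0.10 at 12 h and -0.54 ± 0.10 at 24 h (adjusted p at most 2.57e-06). Between 4 and 12 h C5ar1 fell by 2.13 on the log2 scale (SE 0.10, adjusted p = 1.7e-29). Over the same step C3ar1 moved by 0.64 ± 0.21 (adjusted p = 0.0177), which was called without 12 h replicate 1 (0.82) or 2 (0.84). Without 12 h replicate 3 the C3ar1 change was only 0.17. From 12 to 24 h neither receptor was called, but without 12 h replicate 3 both were, C3ar1 at 0.57 and C5ar1 at 0.40. Within libraries, C3ar1 gave 2.15 to 2.51 times the counts per kb of C5ar1 in the control, 0.896 to 1.03 times after 1 h, 0.216 to 0.237 times after 4 h, 1.17 to 2.05 times after 12 h and 1.37 to 1.41 times after 24 h.

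**Figure D2:**
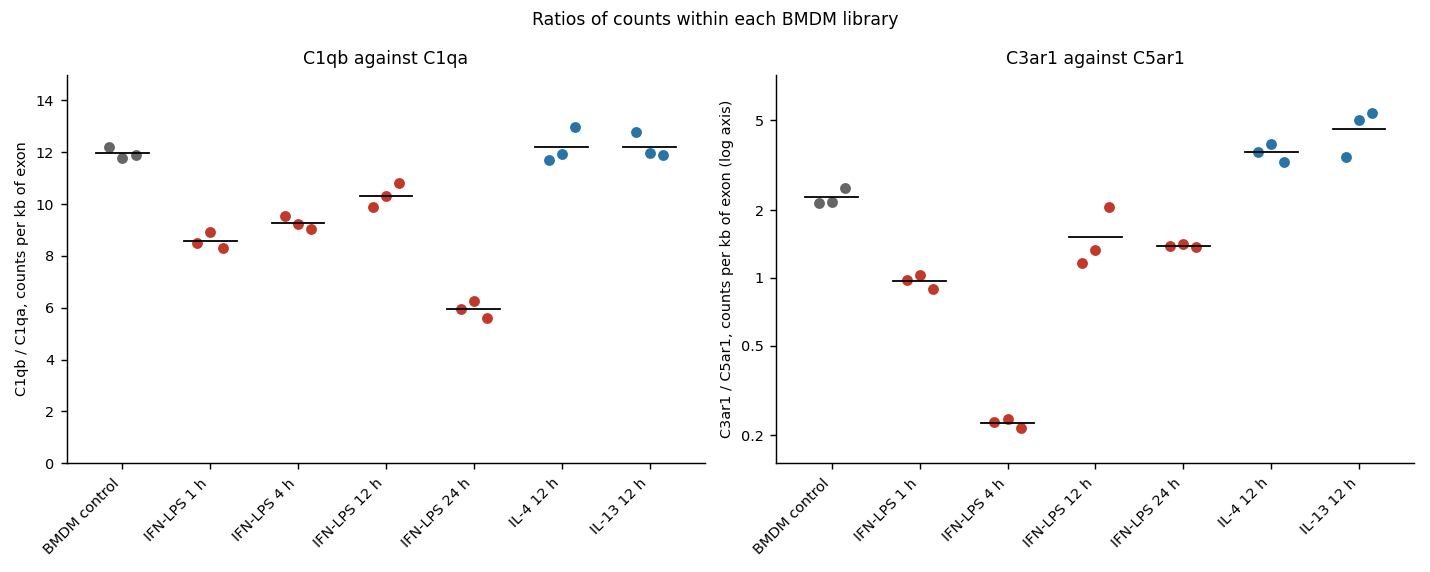
Ratio of C1qb to C1qa (left, linear axis from 0) and of C3ar1 to C5ar1 (right, log axis), as counts per kb of exon in each BMDM library (points) with group means (black lines). The C1qb to C1qa ratio is lowest at 24 h, from 5.61 to 6.28, and the C3ar1 to C5ar1 ratio at 4 h, from 0.216 to 0.237.

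Serping1, the gene of C1 inhibitor (chr2:84765387-84775444), was measured at few counts, from 4 to 22 in each library of the time course. It stood at 2.68, 3.26 and 2.14 CPM in the control libraries and 3.91, 3.86 and 8.09 CPM after 1 h, then at 13.3, 12.4 and 14.8 (4 h), 8.09, 13.0 and 8.82 (12 h) and 9.29, 8.95 and 9.26 (24 h). All treated libraries lay above the control. Its change was 1.00 ± 0.47 at 1 h (adjusted p = 0.0921), 2.30 ± 0.41 at 4 h (adjusted p = 1.66e-06), 1.85 ± 0.42 at 12 h (adjusted p = 0.000103) and 1.74 ± 0.40 at 24 h (adjusted p = 0.00017). From 1 to 4 h it rose by 1.30 ± 0.36 (adjusted p = 0.00185), a call lost with library sizes alone (0.94) and without 1 h replicate 1 (1.11), 1 h replicate 2 (1.14) or 4 h replicate 3 (1.23).

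**Figure D3:**
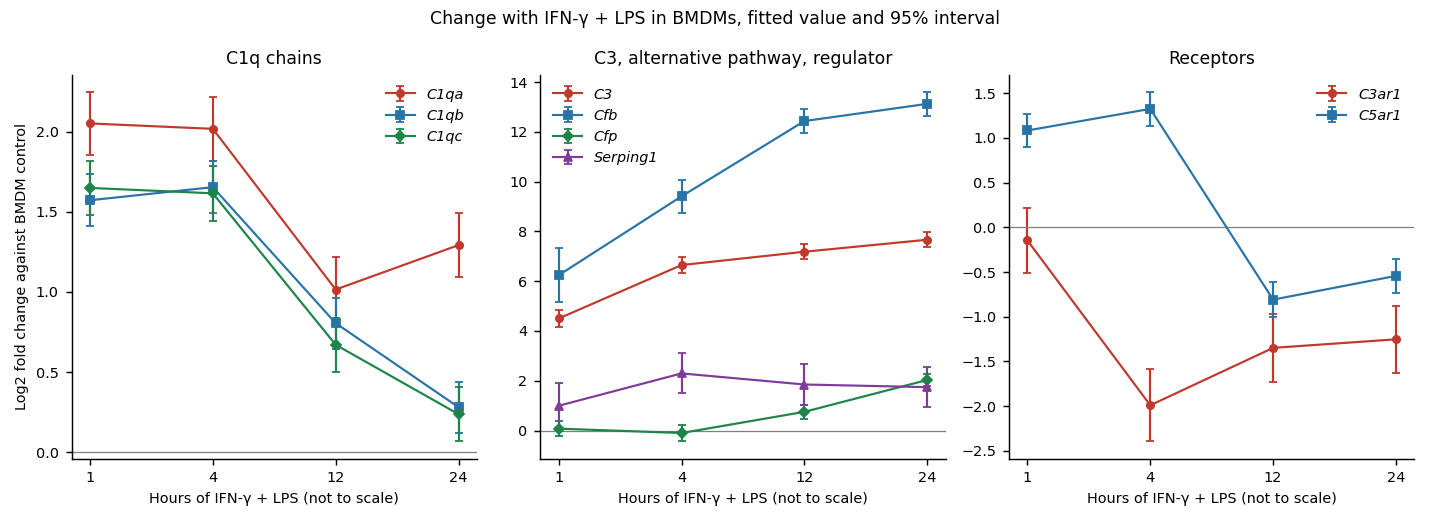
Log2 fold change of the 9 genes against the BMDM control at 1, 4, 12 and 24 h of IFN-γ with LPS, with 95% intervals as bars. The C1q chains and C5ar1 peak at 1 and 4 h, C3 and Cfb keep climbing, Cfp is first called at 12 h, and C3ar1 is lowest at 4 h. The Cfb values rest on 1 count in the control and depend on the prior count. All bars are approximate, and those of Cfb are far narrower than the counting error of that 1 count.

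Counted together, 6 of the 9 genes were called at 1 h, all upward, where 24.9% of all genes tested were called, 14.6% upward and 10.3% downward. At 4 h 7 were called upward and C3ar1 downward (48.5% of all genes, 25.3% upward and 23.2% downward). By 12 h all 9 were called, with C3ar1 and C5ar1 downward (44.9% of all genes, 23.2% upward and 21.6% downward). At 24 h 6 were called upward and the same 2 receptors downward (42.8% of all genes, 22.3% upward and 20.5% downward). With the study's added cutoff of a log2 change of 1.5, the counts were 5, 7, 3 and 4 of the 9, against 7.04%, 21.9%, 17% and 14.7% of all genes. The median log2 change of the 9 genes was 1.57, 1.65, 0.81 and 1.29 at the successive times, against -0.02, -0.09, -0.02 and -0.01 over all genes. These comparisons share the control libraries.

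Between neighbouring times, 4 genes were called from 1 to 4 h, 3 of them upward (36.3% of all genes, 19.1% upward and 17.2% downward). From 4 to 12 h 3 were called upward and 4 downward (33.4% of all genes, 15.2% upward and 18.2% downward), and from 12 to 24 h 3 upward and 2 downward (13.6% of all genes, 4.22% upward and 9.38% downward). C3 and Cfb were called upward at each step. With library sizes alone in place of TMM factors, the change of the median gene moved by -0.22 (1 h), -0.58 (4 h), -0.35 (12 h) and -0.23 (24 h). Under that scaling C1qb turned from 0.08 (adjusted p = 0.427) to -0.28 between 1 and 4 h and was called, as were C1qa and C1qc at -0.40 each.

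IL-4 and IL-13, cytokines that drive alternative activation, each changed 2 of the 9 genes, C3 upward and C5ar1 downward. The background was 6.25% of all genes, 3.78% upward and 2.47% downward, for IL-4, and 8.32% of all genes, 4.98% upward and 3.34% downward, for IL-13, or 3.37% and 4.75% with the study's log2 cutoff of 0.7, which both genes passed. C3 stood at 30.9, 33.9 and 30.4 CPM with IL-4 and 43.7, 26.6 and 22.8 CPM with IL-13, all above the control libraries at 7.49 to 11.4 CPM. The rise was 1.82 ± 0.23 with IL-4 (adjusted p = 6.84e-09) and 1.77 ± 0.23 with IL-13 (adjusted p = 9.67e-09). C5ar1 stood at 211, 187 and 233 CPM with IL-4 and 216, 166 and 160.0 CPM with IL-13, all below the control libraries at 341 to 386 CPM. It fell by 0.81 with IL-4 (SE 0.10, adjusted p = 1.96e-09) and by 1.04 with IL-13 (SE 0.10, adjusted p = 4.17e-13). The C3ar1 to C5ar1 ratio per kb ranged over 3.26 to 3.94 (IL-4) and 3.42 to 5.38 (IL-13), above the control range.

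The C1q chains were not called with either cytokine. With IL-4 the 95% interval of the log2 change ran from -0.26 to 0.18 for C1qa, -0.17 to 0.15 for C1qb and -0.05 to 0.29 for C1qc, and with IL-13 from -0.31 to 0.13, -0.22 to 0.10 and -0.14 to 0.20. C3ar1 libraries held 1237 to 1283 CPM (IL-4) and 1238 to 1441 CPM (IL-13), with changes of -0.15 and -0.05 (adjusted p = 0.722 and 0.917). Cfp libraries held 63.2 to 73.3 CPM and 59.2 to 78.3 CPM (adjusted p = 0.235 and 0.152). Cfb had 2 counts in all with IL-4 and 3 with IL-13. Serping1 had 12 and 7, with 95% intervals of the log2 change from -1.38 to 0.85 and -2.34 to 0.17.

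Set directly against IL-4, IL-13 changed none of the 9 genes at an adjusted p of 0.01 in edgeR or DESeq2, where edgeR called 0.0754% of all genes. At an unadjusted p under 0.05 there was 1, C5ar1, at -0.22 (95% interval -0.43 to -0.01, adjusted p = 0.799). For C3 the difference was -0.05 with a 95% interval of -0.40 to 0.30. The share of Rn45s counts on the antisense strand was 0.0386% to 0.122% in the 12 libraries of the BMDM control and the 1, 4 and 12 h groups and 0.00603% to 0.0283% in the other 13, and its part in comparisons across that split was not tested.

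At 12 h by the labels, IFN-γ with LPS could be set against each cytokine, although its hours may count LPS alone. These comparisons cross the split in the Rn45s antisense share, whose part in them was not tested. Against IL-4, 7 genes stood higher and C3ar1 lower (41% of all genes, 21.1% upward and 19.9% downward), and the same genes did against IL-13 (41% of all genes, 21% upward and 20% downward). C3 stood 5.37 ± 0.13 above IL-4 and 5.42 ± 0.13 above IL-13 (adjusted p at most 5.2e-44). Cfb summed to 6724 counts at 12 h of IFN-γ with LPS. With the value against IL-4 first, C1qa stood 1.06 and 1.11 higher, C1qb 0.82 and 0.86, and C1qc 0.55 and 0.64 (adjusted p at most 6.94e-08). Serping1 stood 2.12 ± 0.44 and 2.94 ± 0.49 higher (adjusted p at most 2.91e-05). C3ar1 was at -1.30 ± 0.19 against IL-13 (adjusted p = 1.83e-05). The Cfp calls, 0.46 and 0.43, were lost without 12 h replicate 3 (0.20 and 0.18) and in DESeq2. They were also lost with library sizes alone (0.11 and 0.06) and with upper-quartile scaling (0.28 and 0.27). Both the Cfp and the C3ar1 calls were lost when only the groups compared were fitted. With library sizes alone C1qc was at 0.21 against IL-4 and not called. C5ar1 was called against neither, at 0.01 (95% interval -0.20 to 0.21) and 0.23 (0.02 to 0.43), and with library sizes alone it was called at -0.34 against IL-4.

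**Figure D4:**
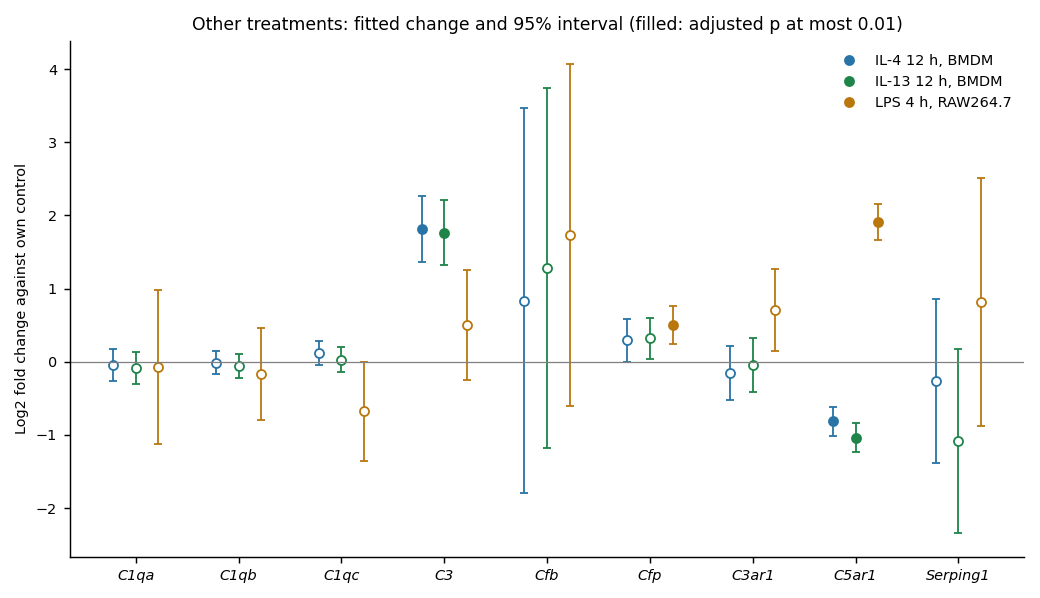
Log2 fold change of the 9 genes against the control of the same cells for IL-4 and IL-13 in BMDMs (12 h) and LPS in RAW264.7 (4 h), with 95% intervals as bars and filled points where the adjusted p was at most 0.01. C3 and C5ar1 are filled for both cytokines, and Cfp and C5ar1 for RAW264.7. All bars are approximate.

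Resting RAW264.7 cells differed from resting BMDMs in 7 of the 9 genes, 1 higher and 6 lower (65.6% of all genes, 31.9% upward and 33.7% downward), and cell, medium and origin cannot be told apart. The C1q chains were low in RAW264.7, with C1qa near the detection limit at 1.04 and 2.90 CPM. C1qb stood at 6.25 and 5.44 CPM and C1qc at 6.94 and 6.16 CPM. The log2 differences from the BMDM control were -5.54 ± 0.23 for C1qa, -7.63 ± 0.16 for C1qb and -6.88 ± 0.17 for C1qc (adjusted p at most 1.89e-33). C3ar1 stood at 78.4 and 67.8 CPM, a difference of -4.26 ± 0.27 (adjusted p = 8.69e-11), and C5ar1 at 112 and 99.3 CPM, a difference of -1.81 ± 0.12 (adjusted p = 1.38e-22). Cfp was the 1 gene that stood higher, at 154 and 169 CPM, by 1.52 ± 0.14 (adjusted p = 2.38e-15). C3 stood at 4.51 and 4.35 CPM, a difference of -1.01 ± 0.35 (adjusted p = 0.00873). That C3 call was lost with median-ratio, upper-quartile or no scaling factors, in DESeq2, when replicate numbers were fitted as a block (-1.08, adjusted p = 0.0131) and without BMDM control replicate 1 (-1.08) or 2 (-0.80) or either RAW264.7 library (-1.03 and -0.98).

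LPS for 4 h raised C5ar1 and Cfp in RAW264.7 (18.5% of all genes, 8.9% upward and 9.61% downward). C5ar1 went from 112 and 99.3 CPM to 403 and 393 CPM, without overlap, a rise of 1.91 ± 0.13 (adjusted p = 9.87e-22). Cfp went from 154 and 169 CPM to 219 and 239.5 CPM, a rise of 0.50 ± 0.13 (adjusted p = 0.00216), which was not called without control replicate 1 (0.44), without LPS replicate 2 (0.44) or with library sizes alone (0.37). C3ar1 went from 78.4 and 67.8 CPM to 121 and 118 CPM, also without overlap, a change of 0.71 ± 0.28 that was not called (adjusted p = 0.0793), but was at 0.75 when only the RAW264.7 libraries were fitted. C3 stood at 6.37 and 6.24 CPM, a change of 0.50 with a 95% interval of -0.25 to 1.26, and the C1q chains at 1.59 to 5.55 CPM. Neither call passed the study's added cutoff of a log2 change of 2, which 3% of all genes did.

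The 4 h changes of both cell types were compared in 1 contrast, the RAW264.7 change minus the BMDM change (25% of all genes, 9.75% upward and 15.3% downward). BMDMs also received IFN-γ, so cell and stimulus cannot be told apart. C3 differed by -6.15 ± 0.53 (adjusted p = 1.4e-15), having risen by 6.65 in BMDMs. The C1q chains differed by -2.09 ± 0.58 for C1qa, -1.83 ± 0.34 for C1qb and -2.29 ± 0.36 for C1qc (adjusted p at most 0.00589), and the C1qa call was lost with upper-quartile scaling, with library sizes alone and without RAW264.7 control replicate 2 (-1.22) or either LPS library. C3ar1 differed by 2.70 ± 0.35 (adjusted p = 6.87e-06), down in BMDMs and at 0.71 in RAW264.7. C5ar1 differed by 0.59 ± 0.16 (adjusted p = 0.00186), upward in both, and by 0.51 and not called without RAW264.7 control replicate 2. Cfp (0.60, adjusted p = 0.0208), Cfb (-7.68, adjusted p = 0.0213) and Serping1 (-1.48, adjusted p = 0.331) were not called. Cfp was called with library sizes alone (1.05), upper-quartile scaling (0.87) or Rn45s kept (0.67). It was also called with only the groups compared (0.61) or without BMDM control replicate 3 (0.71). Cfb was called in DESeq2 (-7.66) or with both strands counted (-5.16). These Cfb values rest on 1 sense count in each control and 4 in RAW264.7 with LPS. In both controls antisense counts on Cfb outnumbered sense counts.

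Levels of different genes can be compared only per kb of exon. On that scale the resting BMDMs held C1qb at 1074 ± 36.8 CPM per kb (SD, n = 3), C1qc at 646 ± 51.4, C3ar1 at 326 ± 5.49, C5ar1 at 144 ± 9.72, C1qa at 89.9 ± 1.97 and Cfp at 34.5 ± 5.50. C3, Serping1 and Cfb stood at 1.75, 1.34 and 0.0648 CPM per kb. After 24 h of IFN-γ with LPS, C1qb was at 1305 ± 31.4 CPM per kb, Cfb at 793 ± 18.5, C1qc at 762 ± 18.4 and C3 at 357 ± 26.5.

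Over the 9 condition means, the gene among 9463 compared whose pattern was most like C1qb was C1qc, with a Pearson r of 0.9992, followed by Ctsh (0.9983). C1qa was closest to Cpq (0.9947), C3 to H2-K1 (0.9941) and B2m (0.9875), and Cfb to Acsl1 (0.9963) and Fpr2 (0.9957). C3ar1 was closest to Mgat5 (0.9942), Serping1 to Gnb2 (0.9815), Cfp to Dera (0.9761) and C5ar1 to Pip5k1a (0.933). These are descriptions over 9 points that share libraries, depth and scaling. They include both RAW264.7 groups, so a shared difference between the cell types can raise r. Over the 7 BMDM groups alone, r was 0.9927 for C1qb and C1qc. For C1qb and C3ar1 it went from 0.8273 over 9 groups to -0.5369 over those 7. The search for the closest genes was not repeated without RAW264.7.

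Of 44 other complement genes listed, 13 passed the filter on low counts and 31 were not tested, of which 14 had no count in any library, among them Mbl1, Mbl2, C6, C7, C8a and C8b. Among the 13 tested, 4 were called upward and 2 downward at 1 h (24.9% of all genes were called), 5 and 3 at 4 h (48.5%), and 4 and 5 at both 12 h (44.9%) and 24 h (42.8%). The downward call of Itgam at 1 h (-0.34) was lost in DESeq2 and without any 1 of the 6 libraries compared. C1ra and C1s1, which encode the proteases of the C1 complex, and C2, the protease of the classical C3 convertase, were called upward at all 4 times. C1ra went from 1.80 ± 0.837 CPM in the control (SD, n = 3) to 15.5 ± 3.74 after 1 h and 22.3 ± 2.81 after 24 h, and C2 from 1.43 ± 0.816 CPM to 6.14 ± 1.31 after 1 h and 16.3 ± 6.92 after 12 h. The C2 call at 1 h was lost without control replicate 2 (1.69) or 1 h replicate 3 (1.86), and the C1s1 call at 24 h (2.25 ± 0.63, adjusted p = 0.00198) without control replicate 1 or 3 or 24 h replicate 3. C1ra and C1s1 have near-identical copies, C1rb and C1s2, with which reads may be shared.

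Several receptors fell. Cd93, a surface receptor once described as a C1q receptor, went from 675 ± 51.7 CPM in the control to 123 ± 8.94 after 4 h and 74.4 ± 3.78 after 12 h, a change of -3.18 ± 0.10 (adjusted p = 6.32e-41), and it also fell with IL-4 (-0.83 ± 0.09) and IL-13 (-0.98 ± 0.09). In RAW264.7 it rose with LPS by 1.56 ± 0.16 (adjusted p = 6.89e-13). C5ar2, the second C5a receptor, went from 14.2 ± 5.04 to 1.62 ± 0.722 CPM after 4 h (-3.05 ± 0.49, adjusted p = 1.31e-07). Itgax, a subunit of complement receptor 4, rose with IL-4 by 0.95 ± 0.17 and with IL-13 by 1.27 ± 0.17 (adjusted p = 0.000635 and 1.2e-05), and was called downward at 12 and 24 h of IFN-γ with LPS. In resting RAW264.7 it stood at -7.63 ± 0.47 against the BMDM control, and it rose there with LPS by 4.42 ± 0.74 (adjusted p = 7.51e-05). The other named genes had smaller ranges of their group means in BMDMs, 586 to 751 CPM for Itgb2 (the shared integrin subunit of complement receptors 3 and 4), 223 to 299.5 for Itgam (a subunit of complement receptor 3) and 43.8 to 82.4 for Cr1l (a regulator of C3 convertases). For Cd59a (an inhibitor of the membrane attack complex) the range was 5.28 to 15.4 CPM, for C1qbp (a C1q-binding protein) 25.3 to 42.6 CPM and for Fcna (ficolin A, of the lectin pathway) 3.32 to 7.28 CPM. Some of these were still called against the control. Cr1l was upward at 4, 12 and 24 h (0.92, 0.58 and 0.56), though not with library sizes alone. Cd59a was downward at 12 h (-1.41 ± 0.31, adjusted p = 6.77e-05). C1qbp was downward at 12 and 24 h (-0.58 and -0.48), calls lost without control replicate 1. Itgam was also downward at 4 h (-0.42), a call lost without 4 h replicate 2. C4b, which was not tested, averaged 0.181 CPM in the control and 5.22 CPM after 1 h.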

How the data were processed

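Per the labels and the study's methods, the authors trimmed reads with Trimmomatic 0.33, aligned them to mm10 with STAR 2.5.1 and deposited raw counts per gene symbol for unstranded, sense and antisense reads. The annotation release is not given in the sources used here. Sense counts were used. The rows of STAR totals that name no gene were left out (reads without a feature came to 62.7% to 69.1%), as was Rn45s, before library sizes were taken. edgeR 4.0.16 (R 4.3.3) with TMM factors, a filter on low counts (filterByExpr, minimum count 10) and robust quasi-likelihood tests was fitted to all 25 samples, with Benjamini-Hochberg adjustment over 10612 genes and a threshold of 0.01. On simulated data for 4 h against control (10089 genes), 70 of 100 genes changed by 1 on the log2 scale and 100 of 100 changed by 2 were recovered, with 3 false calls. Only 200 well-counted genes were changed there, equally up and down, with the same spread for all genes. It therefore does not measure recovery where 48.5% of genes were called, as at 4 h, or for genes of few counts such as Cfb and Serping1. Intervals of count ratios cover counting error only, and 3 counts in a library came to 1.18 to 2.00 CPM. Alternatives were other scalings, other filters and thresholds, DESeq2 1.42.0, a replicate block and leaving out each library.

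Replicate numbers in the labels were not taken to pair samples. Deviations of samples with the same number had a mean correlation of 0.0144 over 63 pairs, of which 3 were over 0.1, and those with different numbers had -0.00724 over 126 pairs. Nothing in the sources says that a number marks a shared animal or batch.

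The 9 genes and the lists of other complement genes and cell markers were chosen with earlier results of these data known. All 9 are named in every comparison, other complement genes where a group mean reached 5 CPM, and for each of the 9 the genes of most similar pattern (Pearson r over group means, from genes that reached 10 CPM). Exon lengths and positions came from GENCODE M21 on mm10 and promoter windows from RefSeq on GRCm38.p6. BMDMs treated with LPS alone were not analysed here. A listed complement gene that met the rule for naming is not reported here.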

Additional observations from a re-analysis of the deposited data

Results flagged for a closer look

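The 4 h change in RAW264.7 cells (LPS) differed from that in BMDMs (IFN-γ with LPS) for 6 of the 9 genes in edgeR's test of the difference itself, where 25% of all genes were called, and for 4 to 7 with 1 library left out. On the log2 scale, RAW264.7 minus BMDM, the difference was -2.09 for C1qa, -1.83 for C1qb, -2.29 for C1qc, -6.15 for C3, 2.70 for C3ar1 and 0.59 for C5ar1. The calls for C1qa and C5ar1 were lost without RAW264.7 control replicate 2. Cell and stimulus cannot be told apart.

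Antisense counts, which entered the comparisons only in the alternative that counted both strands, were above those of every control library in every library of some groups. Summed over 3 libraries, C1qb had 33 antisense counts at 1 h, 34 at 4 h and 30 at 12 h, and C1qc had 48 at 1 h and 47 at 4 h. C3 had 25 at 4 h, 45 at 12 h and 24 at 24 h, and Cfb had 42 at 12 h. The sense counts of these genes were called higher than the control in the same groups. Antisense counts were 0.18% to 0.29% of all counts on C1qb in those groups and 0.37% and 0.54% on C1qc. They were 0.20% to 0.76% on C3 and 0.62% on Cfb. Over all genes, Rn45s included, sense counts were 93.9 to 158 times the antisense counts of a library. Apart from C3 at 24 h, these groups lie, like the control, among the libraries with the higher Rn45s antisense share. C1qb had 4 antisense counts at 24 h, on the other side of that split. The part of the split and the origin of the antisense counts were not tested.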

How the results depend on the processing

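Over other scalings, filters and tools, with the calling threshold unchanged, 1203 log2 changes of the 9 genes were recomputed. Of these, 1158 kept their direction and side of the threshold or were called in neither. A further 25 were no longer called and 18 became called. With 1 library left out, 791 of 819 kept direction and side or were called in neither. Other thresholds were applied only to the counts of called genes. With library sizes alone, C1qb between 1 and 4 h turned to -0.28 and C5ar1 at 12 h of IFN-γ with LPS against IL-4 to -0.34, both called, and 7 genes rather than 4 were called between 1 and 4 h and 1 rather than 2 with LPS in RAW264.7. The study's log2 cutoff left 3 genes at 12 h, 4 at 24 h and 0 with LPS in RAW264.7. With 1 library left out, the last count ranged from 1 to 2. With the replicate numbers as a block, 6 of the 9 genes rather than 7 were called between resting RAW264.7 and BMDMs (C3 at -1.08), and the other comparisons kept their counts of called members. Among all genes, IL-4 gave 663 calls and 1023 when only the groups compared were fitted, and IL-13 against IL-4 gave 8, 3 in DESeq2 and 13 with no filter beyond 1 count. Depth limits Cfb in resting cells and Serping1.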
